A study of Mus musculus with 9 samples.

Results

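Hepatocyte barcodes rich in immediate-early transcripts were examined in Drop-seq data from mouse liver. In Drop-seq a bead's barcode marks the RNA of 1 droplet, usually of 1 cell, and transcripts are counted as unique molecular identifiers (UMIs). A barcode was taken as early-gene-high when it held at least 500 UMIs, at least 5 UMIs of Alb (albumin, the main secreted protein of hepatocytes) and at least 4 UMIs in the sum of Jun, Fos, Egr1, Btg2, Ier2 and Junb. Of 48000 barcodes, 44306 passed the first 2 limits, and 4315 of these (9.74%) were early-gene-high. They were set against the 22806 eligible barcodes of the same tables in which the 6-gene sum was 0, called zero barcodes here, and the 17185 barcodes in between entered neither side. The members were chosen by the UMI counts of the 6 genes, so those values are descriptions and the 6 genes are left out of the comparisons.

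The livers came from 9 wild-type male C57BL/6 mice aged 8 weeks, with 1 count table a mouse. Mice 1, 4 and 7 received PBS intravenously, mice 2, 5 and 8 the vector AAVrh.10Null, and mice 3, 6 and 9 AAVrh.10mCherry, an adeno-associated virus carrying the red fluorescent protein mCherry. The time between injection and harvest is not given in the sources used here. Each mouse is 1 replicate, and a barcode is not.

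Immediate-early genes are transcribed within minutes of a stimulus without the need for new protein. Jun, Junb and Fos encode subunits of the AP-1 transcription factor, Egr1 a zinc-finger activator, Ier2 a nuclear regulator and Btg2 an antiproliferative cofactor. Their mRNAs are short-lived, and the response is closed by feedback genes such as phosphatases of MAP kinases (Dusp family) and mRNA decay factors (Zfp36 family). In liver this program is known from regeneration, from stress and from the dissociation of tissue into single cells.

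Total counts ran from 1083091 (mouse 7) to 11220152 UMIs (mouse 1) per table. Mouse 7 had only 129 eligible barcodes, 24 of them zero barcodes, and 14 depth-matched pairs. The last barcode letter was N for 25.4% to 27.5% of barcodes in mice 1, 3, 4, 5, 6 and 9, and for 0.0972%, 4.83% and 0.278% in mice 2, 7 and 8; without those 3 mice 2993 genes were higher and 2782 lower in the comparison below. Tables shared 91 barcode sequences, and no shared barcode was early-gene-high in more than 1 table. All 14 hepatocyte markers were tested. Their summed level in high barcodes was 76543 to 123936 CPM (counts scaled to library size) over the 9 mice, against 95452 to 130638 in zero barcodes. Alb is among the 14 and was used by the rule, so the sum is a description and no test of the hepatocyte label. Of the 14, 8 were called lower and 0 higher in high barcodes, and 11 lower and 1 higher in the depth-matched pairs.

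The share of early-gene-high barcodes differed between mice more than between treatments. In PBS mice it was 18.0% (mouse 1), 1.23% (mouse 4) and 37.2% (mouse 7, 95% exact binomial interval 28.9% to 46.2%). In AAVrh.10Null mice it was 1.72%, 16.1% and 5.66% for mice 2, 5 and 8. In AAVrh.10mCherry mice it was 12.5%, 7.74% and 18.4% for mice 3, 6 and 9. The ranges of the 3 treatments overlapped, and the lowest and the highest mouse were both PBS mice. AAVrh.10Null minus PBS was -10.97 percentage points (exact two-sided permutation p = 0.5), AAVrh.10mCherry minus PBS was -5.91 (exact permutation p = 0.8) and AAVrh.10mCherry minus AAVrh.10Null was 5.06 (exact permutation p = 0.4). With 3 mice against 3 the smallest p is 0.1, so no difference could pass 0.05. Mouse 7 carried the sign of the second difference, which was 3.29 points without it. The rule takes raw UMIs, so deeper barcodes pass it more easily. With each barcode thinned to 500 UMIs and a sum of at least 2 required, the expected shares were 13.0%, 1.498% and 42.0% in PBS mice, 4.61%, 18.0% and 8.99% in AAVrh.10Null mice, and 12.9%, 11.3% and 18.8% in AAVrh.10mCherry mice.

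**Figure D1:**
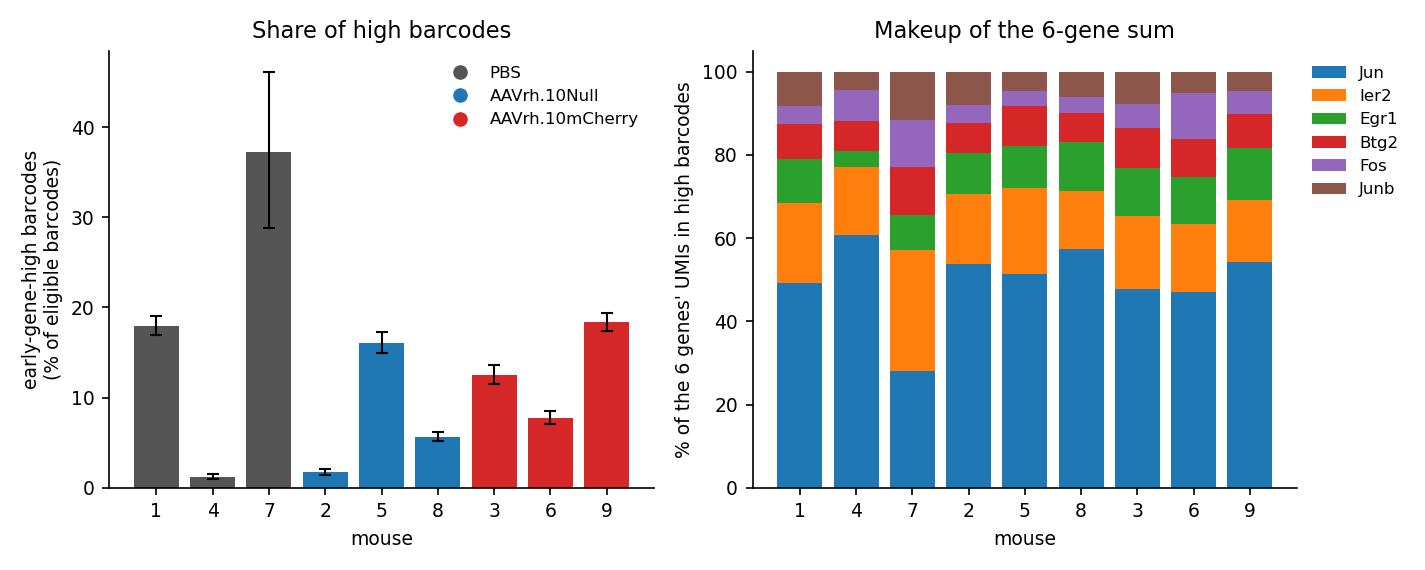
Left, early-gene-high barcodes as a percentage of eligible barcodes in each mouse, with 95% exact binomial intervals that cover counting error only. Right, the percentage of the 6 genes' UMIs in high barcodes that each gene supplied. The share ranged from 1.23% in mouse 4 to 37.2% in mouse 7, both PBS mice, and Jun supplied the most UMIs in 8 of the 9 mice.

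Jun made up 28.1% (mouse 7) to 60.7% (mouse 4) of the 6 genes' UMIs, the largest part in 8 of the 9 mice; in mouse 7 Ier2 held 29.1%. Ier2 supplied 14.0% to 29.1%, Egr1 3.93% to 12.4%, Btg2 6.97% to 11.6%, Fos 3.64% to 11.3% and Junb 4.53% to 11.6%. A median of 2 to 4 of the 6 genes was detected in a high barcode, depending on the mouse. High barcodes were deeper: their median was 1040 to 2291 UMIs per mouse, against 647.5 to 1866.5 in zero barcodes, and it was higher in each of the 9 mice. At the limit, 1073 barcodes had a sum of 4 and 2119 a sum of 3, counted over the mice with at least 20 such barcodes. The other early genes, 79 in 3 lists described below, summed to 4795 ± 1117 CPM (SD, n = 8 mice) just inside it and to 4173 ± 1150 CPM (SD, n = 8 mice) just outside. Their level was 2666 ± 457 CPM (SD, n = 9) in zero barcodes and 7126 ± 2243 CPM (SD, n = 6) at sums of 10 or more, so the rule divides a gradient and does not mark a gap.

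**Figure D2:**
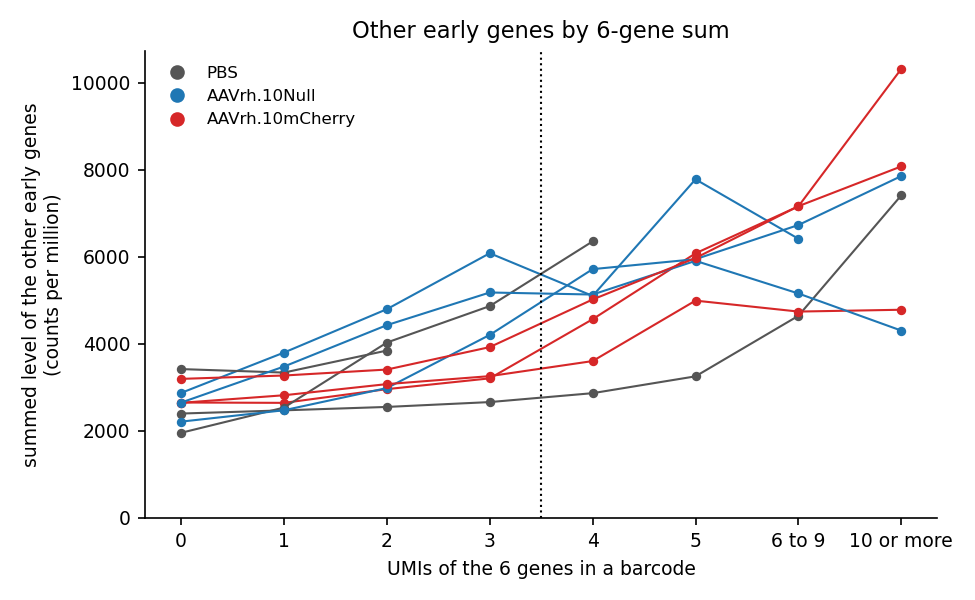
Summed level of the 79 other early genes (CPM) against the UMI sum of the 6 rule genes, 1 line a mouse, for points of at least 20 barcodes; the dotted line is the limit of the rule. The mean over mice was 2666 CPM at a sum of 0, 4173 at 3, 4795 at 4 and 7126 at 10 or more.

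High barcodes carried far more nuclear-retained RNA. Malat1 and Neat1, long noncoding RNAs that stay in the nucleus, made up 1.82% of UMIs at the lowest, 2.58% at the median and 6.27% at the highest of the 9 mice in high barcodes. In zero barcodes the same values were 0.0763%, 0.213% and 1.59%. The share was higher in high barcodes of all 9 mice, at 2.83 ± 1.39% against 0.586 ± 0.607% (SD, n = 9; exact sign-flip permutation p = 0.00391, adjusted over 4 shares 0.0156), which is the smallest p that 9 pairs allow. To remove the depth difference, each high barcode was paired with a zero barcode of the same table within 10% of its UMIs, which gave 3636 pairs in the 8 mice tested, mouse 7 having too few. In these depth-matched pairs Malat1 and Neat1 made up 3.43 ± 2.05% against 0.609 ± 0.664% (SD, n = 8; exact permutation p = 0.00781, adjusted 0.0104), higher in 8 of 8 mice. Transcripts of the mitochondrial genome went the other way, at 8.07 ± 5.36% against 10.4 ± 5.35% (SD, n = 8; exact permutation p = 0.00781, adjusted 0.0104), lower in 8 of 8 mice. Alb made up 3.24 ± 0.691% against 4.14 ± 0.616% of UMIs (SD, n = 8; exact permutation p = 0.00781, adjusted 0.0104) and was also lower in 8 of 8. Without depth matching the mitochondrial and Alb differences did not pass the test (adjusted p = 0.0547 and 0.521, exact permutation, n = 9).

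**Figure D3:**
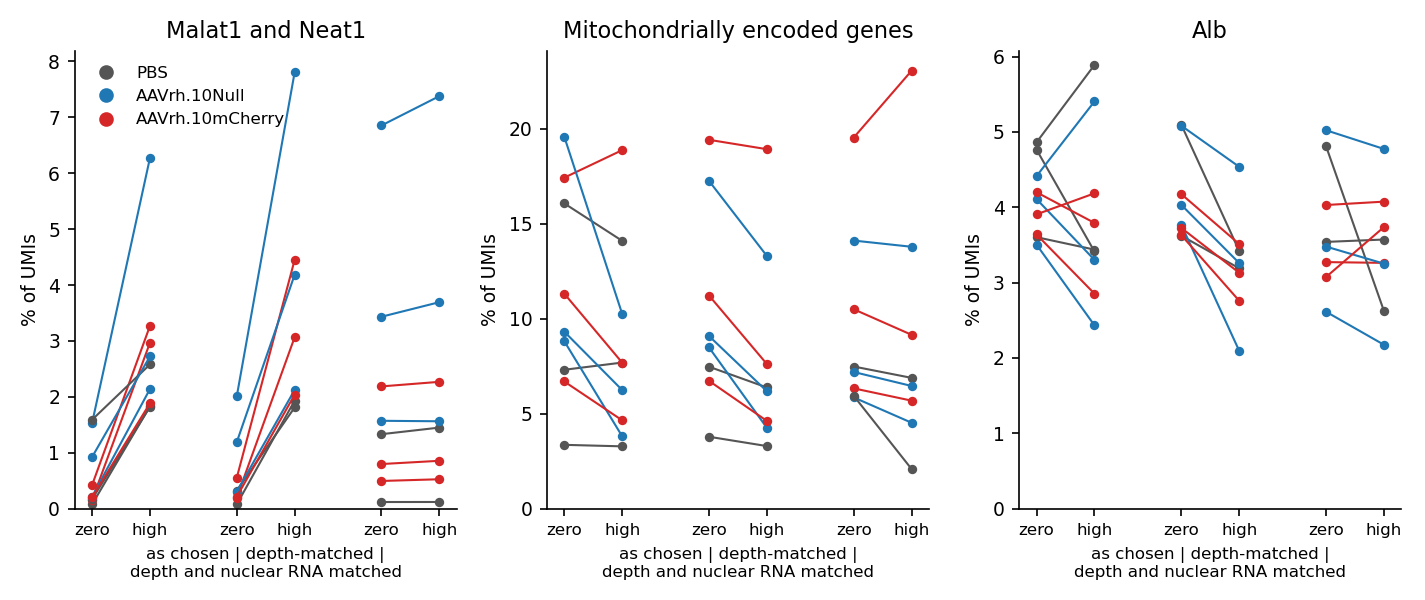
Percentage of UMIs from Malat1 and Neat1, from mitochondrially encoded genes and from Alb in zero and high barcodes, 1 line a mouse, for the barcodes as chosen (9 mice), depth-matched pairs (8 mice) and pairs matched on depth and nuclear RNA (8 mice). Malat1 and Neat1 rise from zero to high in every mouse of the first 2 sets. The third set was built to remove that difference, of which 0.133 percentage points remained.

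Many genes differed between the sides. Summed per mouse and side and tested with the mouse as the pair, 28.4% of 10989 genes were higher and 24.6% lower in high barcodes. In depth-matched pairs 29.2% of 7610 genes were higher (2220) and 27.3% lower (2078) at an adjusted p under 0.05. The split depends on scaling: 51.7% of calls were higher with TMM, the trimmed-mean scaling used here, 80.1% with library totals alone and 59.8% with DESeq2. The median of all genes lay at 0.02, 0.36 and 0.12 (log2) respectively. Changes below are log2 high minus zero under TMM in depth-matched pairs, with standard errors and edgeR adjusted p, unless another set is named. With library totals alone values lie higher by about that median, and lists whose median turns sign are given under each scaling.

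The other early genes were mostly higher. Of 79 genes in the 3 lists, 52 passed the filter on low counts, 37 were higher and 1 was lower, with a median of 0.89 against 0.02 for all genes. Members low on both sides could not be tested, and the lists were chosen with earlier results known. The filter did not ask for counts on both sides, so a member could pass it through high barcodes alone. The count and median of the tested members can therefore lie too high.

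Among AP-1 and related bZIP genes, 4 of 7 tested were higher and 1 lower. Atf3, a stress-induced ATF family partner of JUN, stood at 102, 5.72, 106, 28.0, 151, 152, 14.2 and 95.8 CPM in high barcodes of mice 1, 2, 3, 4, 5, 6, 8 and 9. In the paired zero barcodes it stood at 7.72, 0, 10.6, 0, 11.4, 20.8, 9.15 and 15.7 CPM. The high side was above its own zero side in 8 of 8 mice, though mice 2 and 8 reached no more than other mice's zero level. The change of Atf3 was 3.10 ± 0.20 (adjusted p = 4.9e-16). Jund, the constitutive JUN family member, ran from 123 to 212 CPM (median 171) in high and 34.1 to 92.5 (median 52.6) in zero barcodes. Its change was 1.66 ± 0.14 (adjusted p = 6.2e-13). Mafg, a small MAF protein, changed by 1.55 ± 0.14 and Atf4, the effector of the integrated stress response, by 0.90 ± 0.13. Atf5 was the member called lower, at -0.49 ± 0.15 (adjusted p = 0.0057), and it did not pass with library totals (-0.15) or DESeq2 (-0.34).

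Of 20 tested early transcription regulators, 13 were higher and none lower, with a median of 0.61. Bhlhe40, a circadian repressor, changed by 2.08 ± 0.17, Klf10 by 1.90 ± 0.23 and Klf6 by 1.48 ± 0.21. Hes1, a repressor downstream of Notch, ran from 45.7 to 117 CPM (median 76.9) in high and 0 to 36.4 (median 24.0) in zero barcodes. Its change was 1.78 ± 0.18 (adjusted p = 5.6e-11). Nr4a1, an orphan nuclear receptor, was scarce, at 4.45 to 28.0 CPM against 0 to 11.4 CPM, and changed by 1.66 ± 0.41 (adjusted p = 0.0007). Myc changed by 1.43 ± 0.39 and Stat3 by 0.66 ± 0.16.

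Of 25 tested feedback genes 20 were higher and none lower, with a median of 0.92. Zfp36, which speeds decay of AU-rich mRNAs, ran from 189 to 427 CPM (median 266) in high and 34.2 to 173 CPM (median 70.6) in zero barcodes. Dusp1, a MAP kinase phosphatase, ran from 107 to 301 CPM (median 165) against 11.4 to 97.3 CPM (median 42.0). Trib1, a pseudokinase of the liver, ran from 122 to 269 CPM (median 206) against 22.8 to 67.6 CPM (median 59.4). Zfp36, Dusp1 and Trib1 changed by 1.66 ± 0.14, 1.73 ± 0.15 and 1.91 ± 0.13. Errfi1, an inhibitor of the EGF receptor, was more abundant, at 580 to 1690 CPM against 200 to 794 CPM, with a change of 1.22 ± 0.10 that held in 8 of 8 mice although the ranges overlapped. Nfkbiz changed by 2.73 ± 0.33, Plk3, a stress kinase named with the early genes, by 2.62 ± 0.20, Ppp1r15a by 1.45 ± 0.20, Gadd45a by 1.39 ± 0.23 and Gadd45g by 1.28 ± 0.14. Of 19 serum response factor and YAP targets 6 were higher and 5 lower, close to the 29.2% and 27.3% of all genes. The median of this list was -0.02 with TMM, 0.32 with library totals and 0.05 with DESeq2. Among its members Cyr61, a matrix protein, ran from 9.35 to 245 CPM (median 171) in high and 7.09 to 36.6 CPM (median 24.1) in zero barcodes. It was higher in 7 of 8 mice, with mouse 4 the other way (9.35 against 22.8 CPM), and changed by 2.85 ± 0.19 (adjusted p = 4.9e-16).

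Stress lists were split, while 29.2% of all tested genes were higher and 27.3% lower. Of 21 heat shock genes 6 were higher and 9 lower (9 and 2 with library totals), the first no larger a share than that of all genes, and their median was -0.10 with TMM, -0.03 with DESeq2 and 0.25 with library totals. Dnajb1 (2.15 ± 0.20), Hspa1a (1.77 ± 0.26) and Hspa1b (1.76 ± 0.22), the inducible HSP70 system, were on the higher side. Reads of the near-identical Hspa1a and Hspa1b may be shared. In the unfolded protein list 3 of 18 were higher and 10 lower (5 and 6 with library totals). Its median was -0.35 with TMM, -0.21 with DESeq2 and -0.0066 with library totals. Ddit3, the CHOP transcription factor, changed by 1.55 ± 0.22, while the lumenal chaperones Manf (-0.78 ± 0.12) and Pdia3 (-0.73 ± 0.10) were lower. Of 10 p53 targets 4 were higher and 3 lower, close to those shares for so few genes. Gdf15 changed by 1.79 ± 0.17 and Mdm2 by 1.38 ± 0.17. In the NF-kB and chemokine list 4 of 8 were higher, among them Cxcl1 (1.72 ± 0.19) and Nfkb1 (1.67 ± 0.25), and Sod2 was lower (-0.85 ± 0.11).

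Fasting and glucocorticoid targets were higher in 9 of 16 and lower in none, with a median of 0.54. G6pc, which releases glucose, ran from 183 to 834 CPM against 70.2 to 303 CPM and changed by 1.44 ± 0.13. Igfbp1 changed by 1.49 ± 0.15, Txnip by 1.63 ± 0.17 and Pck1, the entry enzyme of gluconeogenesis, by 0.82 ± 0.11.

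Abundant cytoplasmic mRNAs were lower. All 82 tested ribosomal protein genes were called lower (median -0.78, and 75 of 82 with library totals alone), as were 72 of 76 oxidative phosphorylation genes (median -0.80), with 1 higher. Secreted proteins were lower in 28 of 30 (median -0.71), for example Ttr (-0.83 ± 0.07) and Apoa2 (-0.84 ± 0.07), and major urinary proteins in 15 of 16 (median -0.83), with Mup20 at -0.81 ± 0.07. Acute phase genes were lower in 17 of 21 and higher in 1, Itih3 (0.74 ± 0.09), with Orm1 at -0.72 ± 0.08; library totals gave 7 lower and 3 higher. Antioxidant and metallothionein genes were lower in 14 of 17 (9 with library totals) and higher in 1, with Gstm1 at -0.96 ± 0.09 and Fth1 at -0.82 ± 0.08. Both zonation lists held lower genes. Pericentral genes were lower in 14 of 18 and higher in 3 (median -0.70), with Rgn at -0.90 ± 0.10. Periportal genes were lower in 9 of 20 and higher in 3, with Ass1 at -0.94 ± 0.08, and their median of -0.09 turned to 0.25 with library totals and 0.02 with DESeq2. Cytochrome P450 genes were lower in 23 of 39 and higher in 6 (13 and 9 with library totals), with Cyp2c29 at -0.78 ± 0.08 and Cyp3a25 at 1.13 ± 0.09.

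The largest rises outside the early lists, among genes of at least 50 CPM, included Mug-ps1, a pseudogene of the murinoglobulins (3.19 ± 0.17), Fam193b (2.92 ± 0.24), Kcnq1ot1, a nuclear antisense RNA (2.75 ± 0.19), Mlxipl, the carbohydrate-response factor ChREBP (2.70 ± 0.17), Nfat5 (2.67 ± 0.23), Ogt (2.67 ± 0.20) and Malat1 (2.66 ± 0.17). Reads of Mug-ps1 may be shared with its parent genes. The largest falls were in haemoglobin genes, with Hbb-bt at -3.00 ± 0.22 and Hbb-bs at -2.38 ± 0.24. Hbb-bs levels were set by few tables, with 10430 CPM in zero barcodes of mouse 2, 3572 in mouse 6 and at most 450 in the other mice. Beyond those, Ndufb4 (-1.11 ± 0.18), Snx3 (-1.08 ± 0.14), Rac1 (-0.99 ± 0.14) and Rps27l (-0.98 ± 0.10) were among the lowest. Genes called higher were longer: their median span was 35.3 kb and their median exonic length 6.69 kb, against 13.1 and 2.65 kb for genes called lower and 23.7 and 4.45 kb for all tested (98.0% of which had an annotation). In the nuclear-matched pairs described next the order was the other way, with a median span of 6.05 kb for the 28 genes called higher, 28.7 kb for the 19 lower and 21.5 kb for all tested.

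Because nuclear RNA moved with the choice of barcodes, pairs were also matched on it, an alternative added once the data were known. A high and a zero barcode then had to agree within 10% in UMIs and within 25% or 1 UMI in Malat1 plus Neat1. This left 1373 pairs in the same 8 mice. The high barcodes that found a partner held a smaller Malat1 and Neat1 share than all high barcodes in 6 mice (0.120% against 1.83% in mouse 1) and a larger one in mice 2 (7.38% against 6.27%) and 8 (3.69% against 2.72%). Among 3380 tested genes 28 were higher (0.828%) and 19 lower (0.562%). With 1 mouse left out the counts fell to 13 higher without mouse 9, 16 without mouse 5 or 6 and 18 without mouse 8, and to 7 lower without mouse 6. With the same 1373 high barcodes paired by depth alone, 609 of the 3120 genes tested in both pairings were called, against 38 of these genes after nuclear matching. Malat1 and Neat1 served the matching, so their values there are no result.

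**Figure D4:**
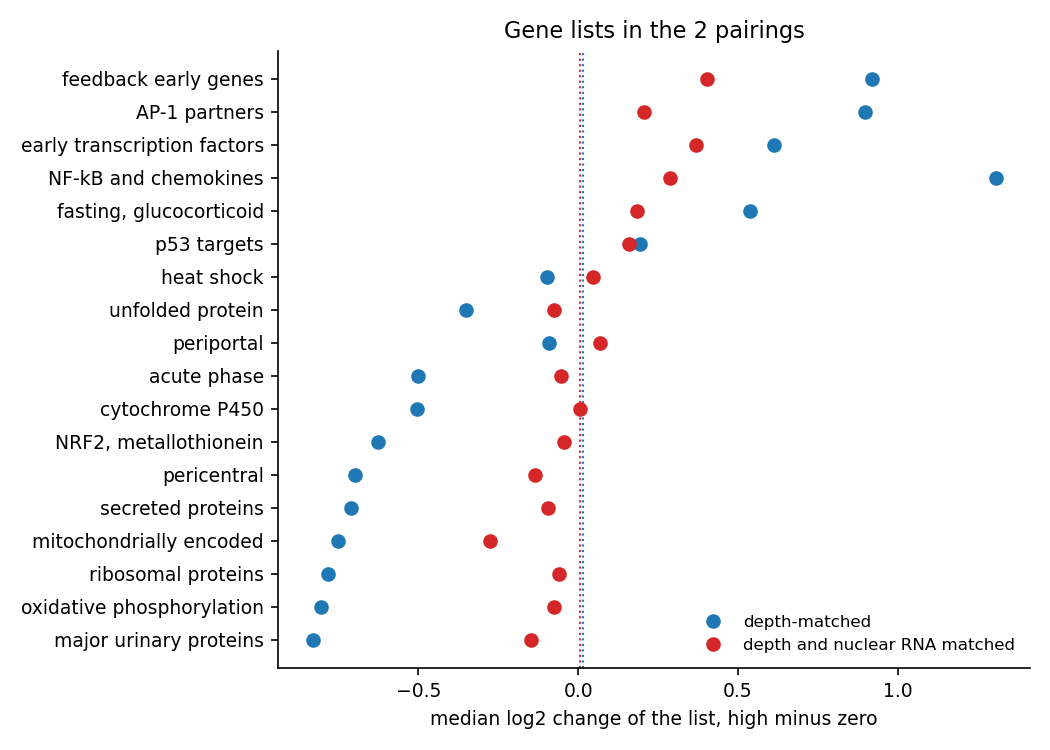
Median log2 change (high minus zero) of each gene list in depth-matched pairs and in pairs matched on depth and nuclear RNA; dotted lines are the medians of all tested genes (0.02 and 0.01). Ribosomal protein genes moved from -0.78 to -0.06 and feedback early genes from 0.92 to 0.40.

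In these pairs the lists of abundant transcripts held no call: 0 of 80 ribosomal, 0 of 73 oxidative phosphorylation, 0 of 30 secreted, 0 of 13 major urinary and 0 of 34 cytochrome P450 genes passed, with medians of -0.06, -0.08, -0.09, -0.15 and 0.00. Over all 3380 genes 281 had an unadjusted p under 0.05, and DESeq2 called 8 higher and 11 lower. Stress lists held no higher call either: 0 of 17 heat shock, 0 of 15 unfolded protein, 0 of 5 p53 and 0 of 2 NF-kB genes were higher, as was 1 of 13 fasting and glucocorticoid targets (median 0.18); 1 unfolded protein gene, Dnajc3, was lower. Fewer counts entered each sum, so a missed threshold does not show that a gene was level.

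Early genes still passed. Of 34 tested members of the 3 lists 8 were higher (23.5%) and none lower, with a median of 0.39 against 0.01 for all genes. The limit of the low-count filter given above holds here too. Atf3 changed by 1.74 ± 0.37 (adjusted p = 0.0054) and was higher in 8 of 8 mice, at 8.93 to 147 CPM against 0 to 44.3 CPM. Jund changed by 0.86 ± 0.20 (adjusted p = 0.012) and Trib1 by 0.93 ± 0.19 (adjusted p = 0.0045), both higher in 8 of 8. Hes1 (1.04 ± 0.25), Zfp36 (0.86 ± 0.18) and Dusp1 (0.81 ± 0.19) were higher in 7 of 8 mice each, and Errfi1 (0.48 ± 0.10) and Id2 (0.48 ± 0.10), an inhibitor of bHLH factors, in 8 of 8. Outside these lists Cyr61 changed by 1.22 ± 0.23 (adjusted p = 0.0019), with the low mice again mouse 4 and, near its zero side, mouse 1 (33.9 against 26.2 CPM). Each of these 9 changes was smaller than in depth-matched pairs. Without barcodes holding 2 or more UMIs of other cells' markers, Atf3 (1.33, adjusted p = 0.085) and Cyr61 (0.92, adjusted p = 0.059) missed the threshold. Jund, Dusp1, Trib1, Hes1 and Id2 missed it with DESeq2 (adjusted p from 0.051 to 0.090), with changes of 0.94, 0.92, 0.99, 1.12 and 0.48. With 1 mouse left out, Jund missed it without mouse 5 or 8, Zfp36 without mouse 8, Dusp1 without mouse 2, 3, 8 or 9, Hes1 without mouse 3, 5, 8 or 9 and Id2 without mouse 8 or 9.

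**Figure D5:**
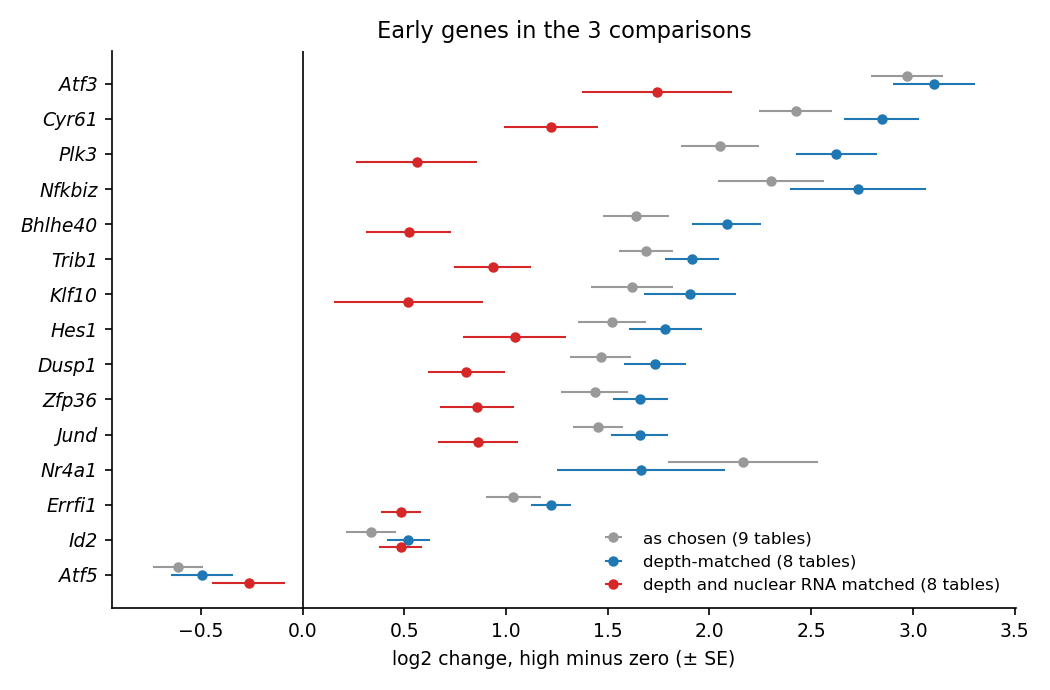
Log2 change (high minus zero, ± SE) of 15 early genes in the barcodes as chosen (9 mice), in depth-matched pairs (8 mice) and in pairs matched on depth and nuclear RNA (8 mice); Nfkbiz and Nr4a1 were not tested in the last. Atf3 lay at 2.97, 3.10 and 1.74, and Id2 at 0.34, 0.52 and 0.48.

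Other genes past the threshold in the nuclear-matched pairs, named after their values were seen, included H3f3b, a replication-independent histone (0.64 ± 0.15), Vmp1 (0.60 ± 0.13), Slc25a25 (0.70 ± 0.17), Angptl8 (0.70 ± 0.14), Pck1 (0.37 ± 0.09) and the urea cycle gene Asl (0.57 ± 0.14). With DESeq2 H3f3b, Vmp1, Slc25a25, Angptl8 and Asl missed the threshold (adjusted p from 0.058 to 0.17). With 1 mouse left out H3f3b missed it without mouse 5, 6, 8 or 9, Vmp1 without 8 or 9, Slc25a25 without 5, 6 or 9, Asl without 5, 6, 8 or 9 and Pck1 without 1, 3, 5, 6 or 9. Dnajc3 (-0.44 ± 0.10) and Gm42418 (-0.48 ± 0.10) were lower in 8 of 8, Gm42418 missing the threshold with DESeq2 (adjusted p = 0.052) and Dnajc3 without barcodes holding other cells' markers (adjusted p = 0.081). All 8 tested endothelial markers were lower, among them Stab2 (-2.19 ± 0.40), Kdr (-1.92 ± 0.30) and Clec4g (-1.90 ± 0.26). These are markers of other cells, and without barcodes holding such markers 5 genes in all were lower, against 19 with them. The same markers defined the barcodes left out, so that drop is partly built in and is no separate result. The part of other cells' RNA in these falls was not tested. Hbb-bs reversed, from -2.38 in depth-matched pairs to 4.58 ± 0.47, with 3493 and 3487 CPM in high barcodes of mice 2 and 6 against 56.0 and 7.38 CPM in their partners, and DESeq2 did not call it (1.06, adjusted p = 0.9998).

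Promoter letters were searched in the 250 bases upstream of RefSeq start sites (GRCm38.p6) of the rule genes and of the 9 early genes just named. The motifs were the cAMP response element (CRE, TGACGTCA), the AP-1 motif TGANTCA and the serum response element core CArG, all 3 of which read the same on both strands; CRE and AP-1 letters as written do not overlap. Windows were found for 4 of 6 rule genes and 7 of the 9 others, Errfi1 with a pair of start sites. A motif stood in 1 of 4 and in 3 of 8 windows, against 9.60% of all 32851 promoters (CRE 1.55%, AP-1 6.75%, CArG 1.47%). The windows with a match are shown to place it, with the motif in capitals, and a match is a description of letters only.
Btg2 (chr1:134079284-134079351, minus strand, CRE starting 166 bases upstream): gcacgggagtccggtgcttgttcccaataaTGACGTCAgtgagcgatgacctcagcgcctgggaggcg
Dusp1 (chr17:26508578-26508645, minus strand, CRE starting 143 bases upstream): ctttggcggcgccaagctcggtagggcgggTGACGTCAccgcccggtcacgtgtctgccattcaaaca
Errfi1 (chr4:150854989-150855056, plus strand, CRE starting 51 bases upstream): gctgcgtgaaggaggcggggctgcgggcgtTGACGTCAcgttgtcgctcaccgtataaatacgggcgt
Zfp36 (chr7:28379247-28379316, minus strand, CArG starting 58 bases upstream): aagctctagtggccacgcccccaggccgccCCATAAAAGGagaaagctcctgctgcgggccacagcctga

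Some lists of markers of other liver cells moved with the choice of barcodes, and their part in the results was not tested beyond the values given. The summed share of all these markers differed by -0.0164 percentage points as chosen (exact permutation, adjusted p = 0.922, n = 9). In depth-matched pairs it differed by 0.103 points (exact permutation, adjusted p = 0.289, n = 8). Among all genes as chosen 28.4% were higher and 24.6% lower. There 0 of 7 T and NK cell markers were called, and of 11 stellate markers 3 were lower and none higher. In barcodes as chosen 10 of 15 tested macrophage markers were higher and none lower (median 1.13), and DESeq2 called 0. Of 5 cholangiocyte markers 4 were higher and 1 lower (median 3.54), and DESeq2 called 3 higher. Of 17 endothelial markers 13 were lower and none higher (median -1.06), with 7 lower under library totals and 8 under DESeq2. In depth-matched pairs 6 of 13 macrophage markers were higher. There 1 of 3 cholangiocyte markers was higher and 1 lower, and 9 of 11 endothelial markers were lower. DESeq2 called 0 macrophage and 0 cholangiocyte markers higher in these pairs, and 5 endothelial markers lower. In the barcodes as chosen, pooled over mice, 11.6% of high and 8.64% of zero barcodes held 2 or more UMIs of 88 such markers. This limit is a raw count, which the deeper high barcodes meet more easily, and mice differed. In mouse 4, 39 of 59 high and 3671 of 4196 zero barcodes stayed below it. In mouse 8, 391 of 406 high and 4014 of 4174 zero barcodes did. Kupffer cell and macrophage markers summed to 17.2 to 6349 CPM (median 199) in high and 0 to 244 CPM (median 168) in zero barcodes, the highest value belonging to mouse 4. Cholangiocyte markers summed to 40.6 to 497 CPM (median 118) in high and 54.5 to 99.3 CPM (median 79.2) in zero barcodes. Endothelial markers summed to 40.6 to 320 CPM (median 123) in high and 100 to 570 CPM (median 226) in zero barcodes. Neutrophil markers were at 0 in high barcodes of all 9 mice. Without the barcodes that held 2 or more marker UMIs, 3165 genes were higher and 2846 lower in barcodes as chosen, close to the 3122 and 2706 with them.

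The effect of being early-gene-high was then compared between treatments, by a test of the difference itself. For AAVrh.10Null minus PBS, 14 of 10989 genes passed and all 14 were lower (0.127%), 517 having an unadjusted p under 0.05. H2-Ab1, a class II antigen-presentation gene, differed by -3.89 ± 0.56 (adjusted p = 5.97e-06), and Lyz2, a myeloid lysozyme, by -3.27 ± 0.60 (adjusted p = 0.000779). For AAVrh.10mCherry minus PBS, 6 genes were lower (0.0546%), with H2-Ab1 at -2.49 ± 0.47, and 1 was higher (0.0091%), Spp1, the osteopontin gene of bile duct cells, at 3.604 ± 0.63 (adjusted p = 0.00142). H2-Ab1 stood at 31.3, 967 and 0 CPM in high barcodes of PBS mice 1, 4 and 7, and at 0 to 57.2 CPM in those of every mouse but mouse 4. For AAVrh.10Null 2 genes passed without mouse 4, 6 without mouse 7 or 8, and 30 to 83 without mouse 1, 2, 3, 5 or 6. For AAVrh.10mCherry 0 passed without mouse 4, 7 or 9, and 15 to 32 without mouse 1, 2, 3, 5, 6 or 8. None of the 9 early genes named above was among the calls of either comparison, and whether their change was alike in the 3 treatments is not shown by that.

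Transgene transcripts were compared last. In barcodes as chosen, mCherry stood at 5902, 3485 and 1502 CPM in high barcodes of the AAVrh.10mCherry mice 3, 6 and 9, and at 9930, 7926 and 2100 CPM in their zero barcodes. High was below zero in each of the 3 mice, and the fit over all 9 tables gave -0.66 ± 0.24 (adjusted p = 0.02), which DESeq2 turned to 0.0336 and which missed the threshold with library totals (-0.27), limma (-0.42) and without mouse 5 or 6 (adjusted p = 0.057 and 0.12). In depth-matched pairs the change was -0.56 ± 0.13 (adjusted p = 0.00026), which missed it with library totals (-0.19, adjusted p = 0.17), and in nuclear-matched pairs it was -0.04 ± 0.11 (adjusted p = 0.98). Only mice 3, 6 and 9 received this vector, so each of these estimates rests largely on 3 mice. The p-values come from fits over all tables of a set. Low mCherry levels of 17.7 to 31.0 CPM were also counted in mouse 1 (PBS) and mouse 5 (AAVrh.10Null), and none in mice 2, 4, 7 and 8.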

How the data were processed

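Deposited raw UMI counts per gene and barcode, 1 table a mouse, were used as the authors made them; the genome build mm10 and Seurat are named in the submitters' processing notes, bcl2fastq 2.19 in the deposited notes on demultiplexing, and the aligner is not given in the sources used here. Counts were summed per mouse and side (at least 20 barcodes a side) without the 6 rule genes. Sums were tested in edgeR 4.0.16 (TMM, filterByExpr, quasi-likelihood, mouse as block, Benjamini-Hochberg, 0.05), and treatments by interaction terms. Depth pairs took the nearest unused zero barcode within 10%. Shares used exact permutation tests. The scripts were tested on simulated data. DESeq2 1.42.0, limma 3.58.1, other limits, other matching and leaving out each mouse were alternatives. Doublets were not called. Members and gene lists were chosen with earlier results of these data known. Named genes were the 12 largest changes each way at 50 CPM or more past the threshold in both fits, early-list genes past both, up to 4 per other list by p, mCherry, Alb and Malat1, and 5 per interaction; from these the text gives a selection, plus genes called in nuclear-matched pairs. Pairing comes from the design, since both sides are the same mouse. Intervals cover counting error only.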

Additional observations from a re-analysis of the deposited data

Results flagged for a closer look

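Some values stood apart from the other mice by Dixon's criterion, which chance alone meets in about 1 of 20 groups. The Malat1 and Neat1 difference in mouse 2 was 4.74 percentage points, the highest of 9. The difference in markers of other liver cells was -1.04 points in mouse 7, whose 24 zero barcodes make the estimate coarse, and 0.617 points in mouse 4 in depth-matched pairs. In nuclear-matched pairs the Alb difference was -2.19 points in mouse 4.

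The effect of being early-gene-high differed between treatments for the following genes. For AAVrh.10Null minus PBS the log2 differences were -3.89 for H2-Ab1, -4.04 for H2-Aa, -5.15 for Laptm5, -3.69 for H2-Eb1, -2.35 for Gm26917, -3.27 for Lyz2 and -4.10 for Crip1. They were -3.29 for Cd52, -5.22 for Ptprc, -5.24 for Cotl1, -2.05 for Gm12909, -2.77 for Cd74, -2.85 for Tyrobp and -2.75 for Ctss. For AAVrh.10mCherry minus PBS they were 3.604 for Spp1, -2.49 for H2-Ab1, -3.41 for Fcer1g, -2.89 for Fcna, -2.75 for Ctss, -2.84 for Tyrobp and -3.18 for Ifi27l2a. Summed macrophage markers reached 6349 CPM in the high barcodes of mouse 4, a PBS mouse, and without that mouse 2 and 0 genes passed.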

How the results depend on the processing

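In barcodes as chosen, library totals without TMM gave 5027 genes higher and 927 lower, DESeq2 1198 lower, the fit with no replicate block 2019 and 1589, AAVrh.10Null mice alone 1045 and 1002, and PBS mice alone 782 and 9. In depth-matched pairs library totals gave 818 lower, no replicate block 1340 and 808, and nuclear matching 28 and 19. In nuclear-matched pairs DESeq2 gave 8 and 11, no replicate block 0 and 0, no filter on low counts 44 lower, leaving out barcodes with other cells' markers 5 lower, and pairing by depth alone 446 and 163. The treatment comparisons gave 4 genes (AAVrh.10Null) and 0 (AAVrh.10mCherry) with DESeq2, and 1 for AAVrh.10mCherry with depth matching. Leaving out 1 mouse gave 2615 to 3101 higher and 2296 to 2841 lower as chosen, 1871 to 2258 and 1703 to 2156 in depth-matched pairs, 13 to 29 and 7 to 21 in nuclear-matched pairs, and 2 to 83 and 0 to 32 genes between treatments, the lowest without mouse 4 and, for AAVrh.10mCherry, also without mice 7 or 9. In nuclear-matched pairs 13 were higher without mouse 9, 16 without mouse 5 or 6, and 7 lower without mouse 6.

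The share differences ranged over -19.8 to -1.77, -14.7 to 3.29 and 2.01 to 9.19 points with 1 mouse left out. The mitochondrial difference was -2.36 points with depth matching, -0.665 with nuclear matching (adjusted p = 0.604, exact permutation) and ranged from -3.09 to -1.75 with 1 mouse left out, passing without mouse 1 or mouse 6 (-2.96 and -3.09). The Malat1 and Neat1 difference was 1.93 to 2.40, and 0.133 with nuclear matching. The Alb difference was -0.903 with depth matching, -0.296 with nuclear matching (adjusted p = 0.604, exact permutation) and -0.414 to -0.117 with 1 mouse left out. Other cells' markers differed by 0.103 with depth matching, 0.0280 with nuclear matching and -0.100 to 0.112 with 1 mouse left out. In nuclear-matched pairs high barcodes held more of them than their partners in only 2 of 8 mice, mice 2 and 4. The values were 0.945% against 0.308% in mouse 4 and, the other way, 0.178% against 0.506% in mouse 6. Single genes turned as follows: mCherry 0.0336 with DESeq2 and 0.22 in PBS mice alone; H2-Ab1 -0.34 and Spp1 -0.42 without barcodes holding other cells' markers; H2-Ab1 -0.71 in AAVrh.10Null mice alone; Ndufb4 0.0782, Hbb-bs 4.58 and Hbb-bt 4.53 with nuclear matching; and Hbb-bs -1.41 in the same high barcodes paired by depth alone. Spp1 is itself among the markers that defined the barcodes left out, so its turn there is partly built in. Of 69 genes named from depth-matched pairs, 9 missed the threshold without the block. Many more missed it with nuclear matching, where fewer counts entered each sum. Among them were Plk3 (0.56, edgeR adjusted p = 0.63), Bhlhe40 (0.52, 0.45), Klf10 (0.52, 0.77), Klf6 (0.56, 0.74) and Mlxipl (0.43, 0.11). Dnajb1 (0.48, 0.70), Gdf15 (0.59, 0.49), G6pc (0.40, 0.27), Igfbp1 (0.63, 0.27) and Txnip (0.19, 0.91) missed it too. The cause of these shifts was not tested. Mouse 7 limits the barcodes as chosen, and low counts limit the nuclear-matched pairs.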
